A study of Sus scrofa with 2 samples.

Results

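miR-99a, miR-99b, miR-100, miR-125a and miR-125b form a small set of conserved miRNAs, and their reads were followed here in small RNA libraries of pig oocytes with and without Dicer knockdown. Members were chosen by name, and their reads by sequence: a read of 18 to 26 nt was assigned to a member if nt 2 to 18 of the mature 5p form were present in it without mismatch and started within 2 nt of its 5′ end. All 5 members were found, as 109 distinct sequences of the 1166705 in the series. No read met the rule for more than 1 member, so none had to be reported as shared.

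The groups were a control and a Dicer knockdown, with 1 library each. Both were pig (Sus scrofa) oocytes matured in vitro for 42 h to metaphase II, the stage at which an egg can be fertilised, and in the knockdown siRNA against Dicer was given earlier, at the germinal vesicle stage. The labels do not say what the control oocytes received or how many oocytes were pooled. The control library held 11836160 reads and the knockdown library 11982925, and levels are given as RPM, reads scaled to the total of the library. With 1 library per group no test between conditions was possible, so each comparison below is between these libraries. All intervals are at 95%. They cover the error of counting alone, because each group has 1 library. No molecular identifiers are described and copies made by PCR are not independent, so the intervals may be too narrow even for that. Dicer RNA itself was not measured in these libraries.

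An miRNA is cut by Drosha and then by Dicer from a hairpin, and the strand kept in an Argonaute protein finds its targets mainly through the seed, nt 2 to 8. The miR-99 and miR-100 members share a seed and are known for targeting mTOR and other growth signalling genes. The miR-125 members are the vertebrate relatives of worm lin-4, a miRNA that times development, and are known for targeting LIN28. Both groups lie beside let-7 genes in vertebrate genomes, and let-7 also targets LIN28. In the RefSeq gene table for Sscrofa11.1, MIR125A, MIRLET7E and MIR99B are consecutive miRNA genes, MIR125B-1, MIRLET7A-1 and MIR100 are another such run, and MIR99A is followed by MIRLET7C. Of 6 gene symbols looked for, 5 matched, and MIR125B-2 did not.

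The most abundant read of each member, over both libraries together, is shown with the seed in capitals. It shows which bases separate members that share a seed.
miR-99a: aACCCGTAgatccgatcttgt
miR-100: aACCCGTAgatccgaacttgt
miR-99b: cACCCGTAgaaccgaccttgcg
miR-125a: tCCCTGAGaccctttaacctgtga
miR-125b: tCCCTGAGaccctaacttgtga

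miR-99a and miR-100 differed at 1 of 21 compared positions, T16A, counted from the 5′ end with the miR-99a base first. miR-99b differed from miR-100 at 4 positions, C1A, A11T, C16A and C21T. miR-125a and miR-125b were identical over their first 13 nt. The assigned reads of all members began almost always at the same base: 99.6% of control reads and 99.6% of knockdown reads started exactly at the 5′ end of these forms. Among all reads of 18 to 26 nt with the miR-99 and miR-100 seed at nt 2 to 8, members accounted for 95.8% in control (exact binomial interval 94.97 to 96.5%) and 94.1% after knockdown (92.7 to 95.4%). For the miR-125 seed the shares were 64.0% (61.4 to 66.6%) and 66.4% (63.5 to 69.3%). The other reads did not match a member over nt 2 to 18. They include miR-125b reads with 1 substituted base, C11T, 103 in control and 88 after knockdown, which are described further on.

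Summed over the 5 members, the family was at 302 RPM in control and 158 RPM after knockdown, on 3573 and 1894 reads. The ratio of knockdown to control was 0.524 (exact conditional interval 0.495 to 0.554). Much of this difference was miR-100, since the other 4 members together were at 122 and 102 RPM, a ratio of 0.841 (0.779 to 0.908). Less RNA per oocyte and fewer cells that carry the RNA cannot be told apart in libraries of pooled oocytes. By seed, miR-99 and miR-100 together had a ratio of 0.443 (0.414 to 0.474) and the miR-125 members together 0.771 (0.696 to 0.853).

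All 5 members had at least 100 reads over both libraries. By a 2-fold limit, miR-99a was the 1 member above it after knockdown, miR-100 the 1 below it, and 3 lay between. Both the miR-99a call and that count change when reads under 21 nt are left out, as given with the read lengths. As background, reads of 18 to 26 nt were grouped by a shared first 18 nt, and 8411 groups reached the same minimum, with 4.01% past the limit upward, 5.01% downward and 9.01% in either direction. In the 6272 groups mostly 20 to 24 nt long these shares were 3.73%, 5.15% and 8.88%. The median log2 ratio was -0.34 over the 5 members and -0.11 over these read groups. With 5 members, a count of 1 in each direction is too small to set the list apart from that background.

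**Figure D1:**
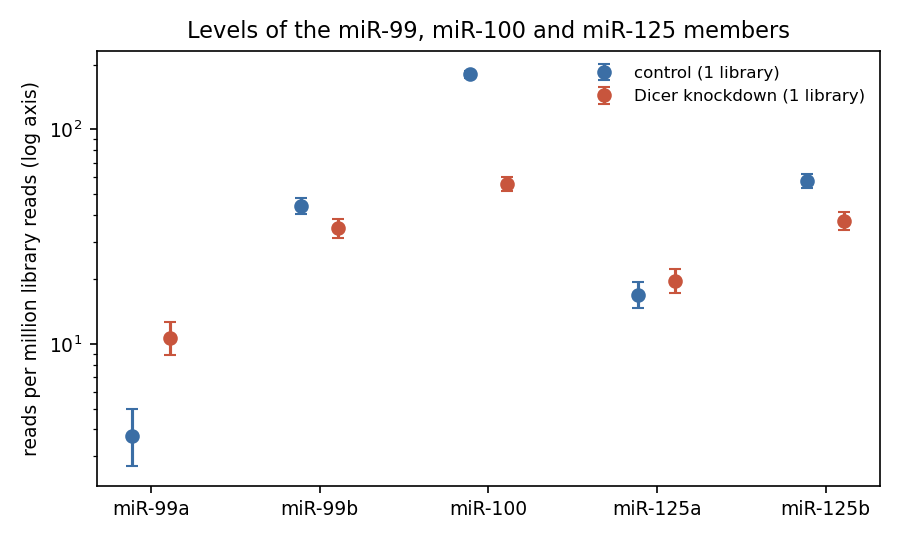
Levels of the 5 members in RPM (vertical log axis), with 1 point per library and exact Poisson 95% intervals for counting error. miR-100 falls from 180.1 to 55.7 RPM, while miR-99a, the member with the lowest level in both libraries, goes from 3.72 to 10.7 RPM.

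miR-100 was the most abundant member in both libraries and the one that differed most downward. It stood at 180.1 RPM (172.6 to 187.9) in control, on 2132 reads, and at 55.7 RPM (51.5 to 60.1) after knockdown, on 667 reads. The level was 3.24-fold lower after knockdown (2.97 to 3.54). Its share of family reads went from 59.7% (58.0 to 61.3%) to 35.2% (33.1 to 37.4%). Ranked among read groups with a shared first 18 nt, it was at place 343 in control and 970 after knockdown.

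miR-99a, which has the same seed and differs by 1 base, went the other way. It had 44 control and 128 knockdown reads, which are 3.72 RPM (2.70 to 4.99) and 10.7 RPM (8.91 to 12.7). The ratio was 2.87 (2.03 to 4.15). The miR-99a form printed at the start, 21 nt long, had 23 and 37 reads. Its ratio of 1.59 (0.920 to 2.80) was within counting error of equal levels. The leading 22-nt form had 4 and 30 reads, a ratio of 7.41 (2.61 to 28.9). The leading 20-nt form had 1 and 30 reads, a ratio of 29.6 (4.93 to 1209). miR-100 reads outnumbered miR-99a reads 48.5-fold in control and 5.21-fold after knockdown. A miR-100 read with T at the distinguishing base would be counted as miR-99a. Reads with G there numbered 1 in control and 0 after knockdown, and none had C. Reads with T made up 1.85% of the combined miR-99a and miR-100 reads in control (1.33 to 2.51%) and 15.3% after knockdown (12.8 to 17.97%), counted over nt 1 to 18 from the exact start. Whether misread miR-100 is among the miR-99a reads was not tested.

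miR-99b was at 43.8 RPM (40.2 to 47.8) and 34.5 RPM (31.3 to 38.0), on 519 and 414 reads, with a ratio of 0.788 (0.691 to 0.898). Its short and long forms differed in opposite directions, as described with the read lengths. miR-125b was at 57.3 RPM (53.1 to 61.8) and 37.5 RPM (34.1 to 41.1), on 678 and 449 reads, a ratio of 0.654 (0.579 to 0.738). miR-125a had 200 and 236 reads, or 16.9 RPM (14.6 to 19.4) and 19.7 RPM (17.3 to 22.4). Its ratio of 1.17 (0.961 to 1.41) was within counting error of equal levels.

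In the control library the order of levels was miR-100, miR-125b, miR-99b, miR-125a and miR-99a, with no overlap between the intervals of neighbours. In the knockdown library the order was the same, but the intervals of miR-125b and miR-99b overlapped. miR-125b outnumbered miR-125a 3.39-fold in control and 1.90-fold after knockdown.

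Members and their neighbours in a run had like ratios in some cases and not in others. In the run that holds miR-100, the let-7a ratio was 1.07 (1.02 to 1.11), with 371.8 and 396.6 RPM, against 0.309 for miR-100 itself. let-7a is encoded by more than 1 gene, so its reads do not report on that locus alone. In the run of miR-99b and miR-125a, let-7e had levels of 17.5 and 25.3 RPM and a ratio of 1.45 (1.21 to 1.73). Its interval overlapped that of miR-125a, 1.17 (0.961 to 1.41), and not that of miR-99b, 0.788 (0.691 to 0.898). There were 2.51 miR-99b reads for each let-7e read in control and 1.37 after knockdown. Beside miR-99a, let-7c had levels of 10.6 and 15.9 RPM and a ratio of 1.501 (1.19 to 1.90). That is the same direction as miR-99a, at 2.87 (2.03 to 4.15), but their intervals did not overlap. These let-7 reads were matched over nt 2 to 20, and those of the members over nt 2 to 18. With members also matched over nt 2 to 20, miR-99a was at 2.62 (1.83 to 3.81), and its interval overlapped that of let-7c. miR-99b was then at 0.534 (0.459 to 0.619), still apart from let-7e. The related miR-10 members, whose seed differs by an added base, were at very different depths. miR-10b was nearly equal, at 35954 and 37129 RPM, with a ratio of 1.03 (1.03 to 1.04), and miR-10a was higher after knockdown, with 24.6 and 85.7 RPM and a ratio of 3.49 (3.06 to 3.98). They differ at nt 12, so a miR-10b read with T there (A12T) would be counted as miR-10a. From the exact start A12T reads numbered 223 and 911, or 0.0583% and 0.225% of these and exact miR-10b reads together. Other single-base changes of miR-10b at nt 11 to 13 had ratios from 0.790 (A12C) to 42.0 (A11C). Both ends of that range rest on few control reads. A12C had 5 and 4 reads (0.157 to 3.67), and A11C had 2 and 85 (11.3 to 352). The A2G reads of miR-10b were at 0.121% and 0.0888%. Whether misread miR-10b is among the miR-10a reads was not tested. Of these 5 related miRNAs (let-7a, let-7c, let-7e, miR-10a and miR-10b), 1 passed the 2-fold limit upward, 0 downward and 4 neither, with a median log2 ratio of 0.53. In the 8411 background read groups 4.01% passed it upward and 5.01% downward, with a median of -0.11. With 5 miRNAs, a count of 1 is too small to set this list apart from that background.

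The opposite, 3p arm of each hairpin is usually degraded after Dicer has cut, and it was rare for most members. miR-99a-3p had no read in either library, which allows up to 0.253 RPM in control and 0.2504 RPM after knockdown by a floor of 3 reads. That count, like the 0 reads of miR-214, miR-144 and miR-223, says only that no read held the short marks used to recognise it, which were not checked against a reference. miR-100-3p had 0 control and 3 knockdown reads, miR-125a-3p 0 and 2, and miR-99b-3p 3 and 11. The arm of the miR-125b-2 hairpin was the exception. Its leading forms are shown with nt 2 to 8 in capitals, since they differ only at their 3′ end.
miR-125b-2-3p, 21 nt ending in T: aCAAGTCAggctcttgggact
miR-125b-2-3p, 22 nt: aCAAGTCAggctcttgggacct
miR-125b-2-3p, 21 nt ending in C: aCAAGTCAggctcttgggacc

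miR-125b-2-3p was higher after knockdown, with 125 and 505 reads, or 10.6 RPM (8.79 to 12.6) and 42.1 RPM (38.5 to 46.0). The ratio was 3.99 (3.27 to 4.89), while the 5p strand miR-125b, which both miR-125b hairpins give, was lower. There were 5.42 miR-125b reads for each miR-125b-2-3p read in control and 0.889 after knockdown. Of these forms the 21-nt one ending in T differed most, with 20 and 205 reads, a ratio of 10.1 (6.39 to 16.9). The 22-nt form had 31 and 132 reads, a ratio of 4.21 (2.83 to 6.44), and the 21-nt form ending in C had 33 and 69, a ratio of 2.07 (1.35 to 3.23). miR-125b-1-3p, from the hairpin in the run with miR-100, had 16 and 27 reads, and at this depth its ratio of 1.67 (0.866 to 3.31) cannot be told from equal levels.

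**Figure D2:**
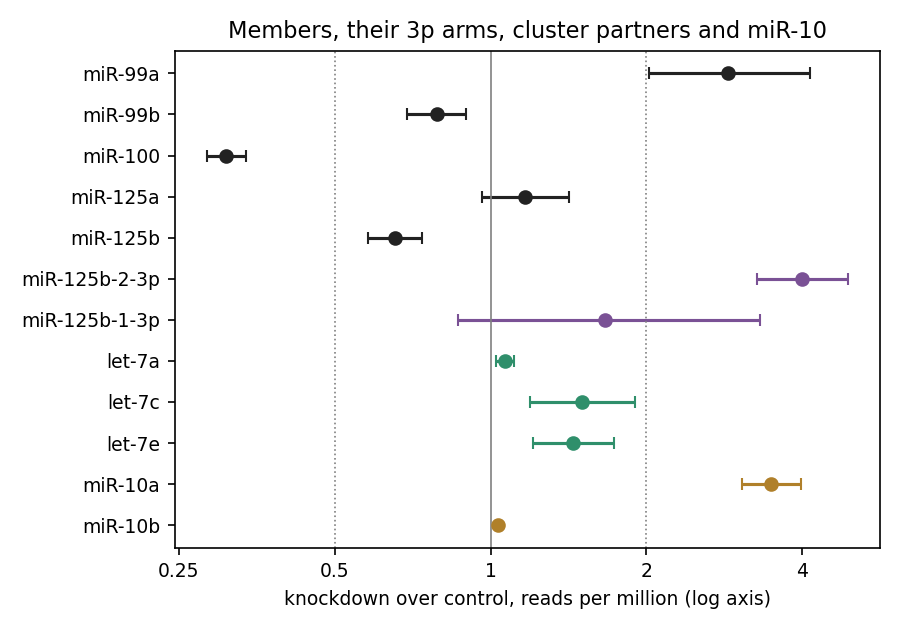
Ratio of knockdown to control (horizontal log axis) for the 5 members (black), both miR-125b 3p arms (purple), the let-7 cluster partners (green) and miR-10 (ochre), with exact conditional 95% intervals and dotted lines at 2-fold. miR-100 lies alone at 0.309, and miR-99a, miR-125b-2-3p and miR-10a lie to the right of 2.

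The summed levels of 3 lists of miRNAs known from other cells were higher after knockdown, each led by 1 miRNA. The stromal and vascular list of miR-143, miR-145, miR-199a-3p, miR-214, miR-126-5p and miR-126-3p summed to 29.0 and 128 RPM, a ratio of 4.40 (3.91 to 4.96), and without miR-143 the ratio was 2.04 (1.48 to 2.86). miR-100 was left out of this list, and its own ratio was 0.309, on 2132 and 667 reads. miR-214 had 0 reads in both libraries and miR-145 had 0 and 4. The granulosa list of miR-202-5p, miR-21-5p, miR-132, miR-212 and miR-383 summed to 472 and 608 RPM, a ratio of 1.29 (1.24 to 1.33), nearly all of it miR-21-5p with 5476 and 7177 reads. In that list miR-202-5p was higher, with 6 and 32 reads and a ratio of 5.27 (2.17 to 15.4), and miR-212 had 6 and 7 reads. By contrast, miR-383 was lower, with a ratio of 0.567 (0.340 to 0.930), and miR-132 had a ratio of 0.780 (0.516 to 1.17). The blood list summed to 35.5 and 47.1 RPM, nearly all of it miR-486. In the blood list miR-451 had 7 and 5 reads, with miR-144 and miR-223 at 0 in both. Whether RNA of other cells had a part in the higher miR-99a, miR-125b-2-3p and miR-10a was not tested.

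Read ends also differed between the libraries. miR-99b had many more short reads after knockdown. The forms that carry this exchange are shown from the shortest to the longest, with the seed in capitals.
miR-99b, 18 nt: cACCCGTAgaaccgacct
miR-99b, 19 nt: cACCCGTAgaaccgacctt
miR-99b, 21 nt: cACCCGTAgaaccgaccttgc
miR-99b, 22 nt: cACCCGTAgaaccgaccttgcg
miR-99b, 23 nt: cACCCGTAgaaccgaccttgcgt

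Reads of the 18-nt form numbered 1 and 74, a ratio of 73.1 (12.7 to 2926), and the 19-nt form 7 and 63, a ratio of 8.89 (4.07 to 23.01). The 21-nt form had 102 and 77 reads, and its ratio of 0.746 (0.547 to 1.01) was within counting error of equal levels. For the 22-nt form, with 232 and 114 reads, the ratio was 0.485 (0.384 to 0.610). The 23-nt form ending in T had 113 and 26 reads and was 4.40-fold lower (2.85 to 7.02).

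Reads of 18 to 19 nt therefore made up 1.54% of miR-99b reads in control (0.668 to 3.01%) and 33.1% after knockdown (28.6 to 37.9%). Counting only reads of 20 to 24 nt, the miR-99b ratio was 0.536 (0.462 to 0.622), in place of 0.788. The mean length of miR-99b reads went from 21.99 to 20.6 nt. Short ends were also more frequent in miR-10b, where 18 to 19 nt forms took 0.730% of control and 2.69% of knockdown reads, and in miR-10a, with 3.44% and 12.95%. Reads of 18 nt outside the listed miRNAs were 1.22-fold higher after knockdown (1.21 to 1.23) and those of 19 nt were at a ratio of 0.959 (0.952 to 0.966). Of 6262 read groups mostly 20 to 24 nt long, 1.13% had a share of 18 to 19 nt reads at least 10 percentage points higher after knockdown, and 1.29% at least 10 points lower. That threshold was set after the values had been seen.

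Among the other members, miR-99a also had a larger share of short reads after knockdown. It had 1 of 44 reads of 18 to 19 nt in control and 14 of 128 after knockdown. With 20 nt included, the miR-99a shares were 6.82% in control (1.43 to 18.7%) and 36.7% after knockdown (28.4 to 45.7%), beside 4.05% and 40.8% for miR-99b over the same lengths. Among reads of 21 nt or more, a limit chosen after the values were seen, the miR-99a ratio was 1.95 (1.32 to 2.91) and no longer past the 2-fold limit. At that length the miR-99b ratio was 0.486 (0.415 to 0.567), past the limit downward. In miR-100, reads of 18 to 19 nt had shares of 0.797% in control (0.465 to 1.27%) and 0.750% after knockdown (0.244 to 1.74%), and in miR-125b 3.98% and 4.23%, with overlapping intervals in both. miR-125a had 1 such read in control and 0 after knockdown.

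**Figure D3:**
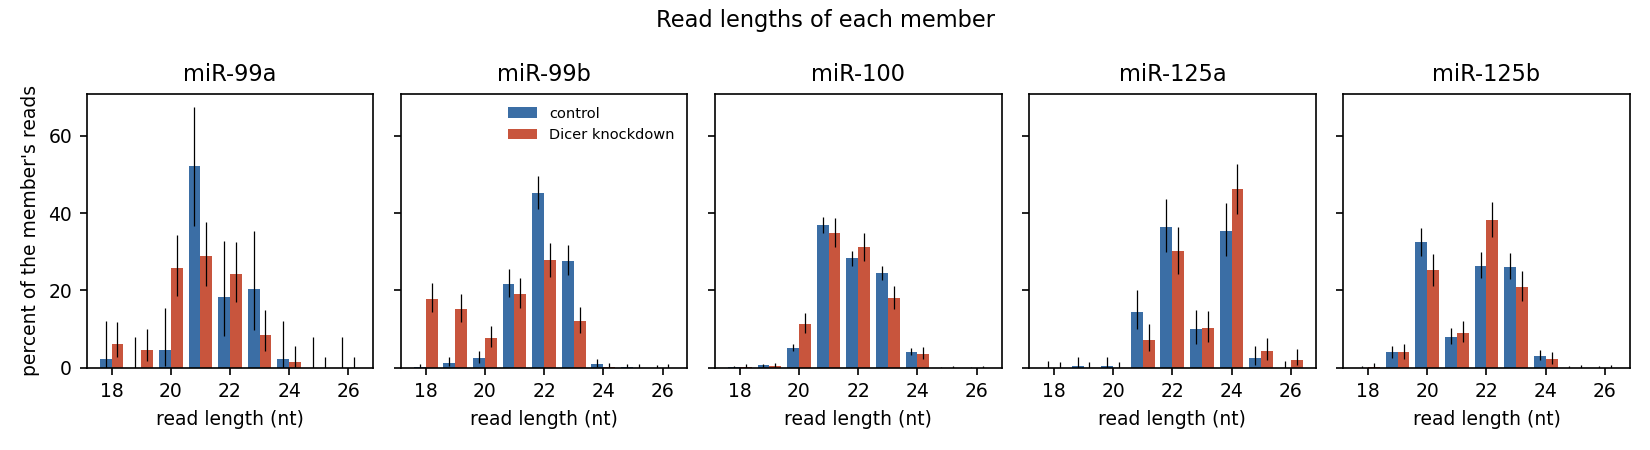
Percent of each member's reads by read length in nt, for the control library (blue) and the Dicer knockdown library (red), with exact binomial 95% intervals. miR-99b gains bars at 18 and 19 nt after knockdown, 17.9% and 15.2% against 0.193% and 1.35%. The 24-nt share of miR-125a is 35.5% in control and 46.2% after knockdown, with overlapping intervals.

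miR-100 was lower in every abundant form, but most in its longest ones. The 3 most abundant forms and the 20-nt form are shown for their 3′ ends, with the seed in capitals.
miR-100, 20 nt: aACCCGTAgatccgaacttg
miR-100, 21 nt: aACCCGTAgatccgaacttgt
miR-100, 22 nt: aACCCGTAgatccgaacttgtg
miR-100, 23 nt: aACCCGTAgatccgaacttgtga

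The 20-nt form had 109 and 75 reads, a ratio of 0.680 (0.4996 to 0.920). The 21-nt form had 781 and 232 reads and was 3.41-fold lower (2.94 to 3.96). Reads of the 22-nt form numbered 591 and 197, 3.04-fold lower (2.58 to 3.59). The 23-nt form had 497 and 106 reads, 4.75-fold lower (3.84 to 5.91). Reads of 18 to 20 nt made up 6.05% of miR-100 reads in control (5.08 to 7.15%) and 12.1% after knockdown (9.76 to 14.9%). Reads of 23 nt or more made up 28.6% (26.7 to 30.6%) and 21.7% (18.7 to 25.1%). Among 23-nt reads from the exact start, the last base was A in 498 of 520 control reads, 95.8%, and in 106 of 121 knockdown reads, 87.6%. G was the last base in 16 and 12 of them.

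The miR-125 members did not shorten after knockdown. The miR-125a share of reads of 23 nt or more went from 48.0% (40.9 to 55.2%) to 62.7% (56.2 to 68.9%), and its mean length from 22.7 to 23.2 nt. Its 24-nt form, the one printed at the start, had 68 and 101 reads, a ratio of 1.47 (1.07 to 2.03), and the 22-nt form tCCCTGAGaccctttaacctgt 67 and 66, a ratio of 0.973 (0.682 to 1.39). All miR-125a reads of 21 nt together numbered 29 and 17, a ratio of 0.579 (0.298 to 1.09).

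miR-125b had 1 of its 3 leading forms within counting error of equal levels. Its 22-nt form, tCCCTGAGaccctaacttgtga, had 164 and 161 reads, a ratio of 0.970 (0.775 to 1.21). The 20-nt form tCCCTGAGaccctaacttgt, which lacks the last 2 bases, had 215 and 109 reads a ratio of 0.501 (0.394 to 0.633). The 23-nt form tCCCTGAGaccctaacttgtgaa, with an added A, had 167 and 87 reads and was 1.94-fold lower (1.49 to 2.55). As a result the most abundant miR-125b form was 20 nt long in control and 22 nt after knockdown.

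Single substituted bases at 1 position each in miR-125b and miR-100 had the most reads among the members. These reads were outside the member counts. The most abundant read of each kind is shown with the changed base in capitals.
miR-125b with C11T: tccctgagacTctaacttgtga
miR-100 with C13T: aacccgtagatcTgaacttgt

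Reads of miR-125b with C11T, counted from the 5′ end over nt 1 to 18, numbered 103 and 88. They were 13.2% of the exact and changed reads together in control (10.9 to 15.8%) and 16.4% after knockdown (13.4 to 19.8%). The printed read alone had 66 and 68 reads. miR-100 with C13T had 79 and 58 reads, 3.59% in control (2.85 to 4.46%) and 8.01% after knockdown (6.14 to 10.2%). The intervals of both libraries overlapped for miR-125b and did not for miR-100. As levels, the ratio of knockdown to control was 0.844 (0.628 to 1.13) for the changed miR-125b reads and 0.725 (0.508 to 1.03) for the changed miR-100 reads. The members themselves were at 0.654 (0.579 to 0.738) and 0.309 (0.283 to 0.337). The intervals of changed reads and member overlapped for miR-125b and did not for miR-100.

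Both changes stood far above the next in the same miRNA, C12T at 0.618% of miR-125b and C5T at 0.322% of miR-100, over both libraries. The same base was not changed in every relative. In miR-99b, which has the same bases as miR-100 at nt 12 to 15, C13T had 0 of 926 reads, which allows up to 0.324% by the floor of 3 reads. miR-99a had 0 of 160, which allows up to 1.88% by that floor. C11T in miR-125a, which is identical to miR-125b there, had 5 of 441 reads, 1.13% (0.369 to 2.63%). For scale, the most frequent change in nt 1 to 18 of miR-10b was A2G at 0.104% over both libraries. In miR-99a the most frequent over both libraries was A1G, at 4.76% on 1 control and 7 knockdown reads, a share like that of C13T in miR-100, 4.69%. The A1G reads are counted within the member because the rule begins at nt 2. The source of these bases was not tested.

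**Figure D4:**
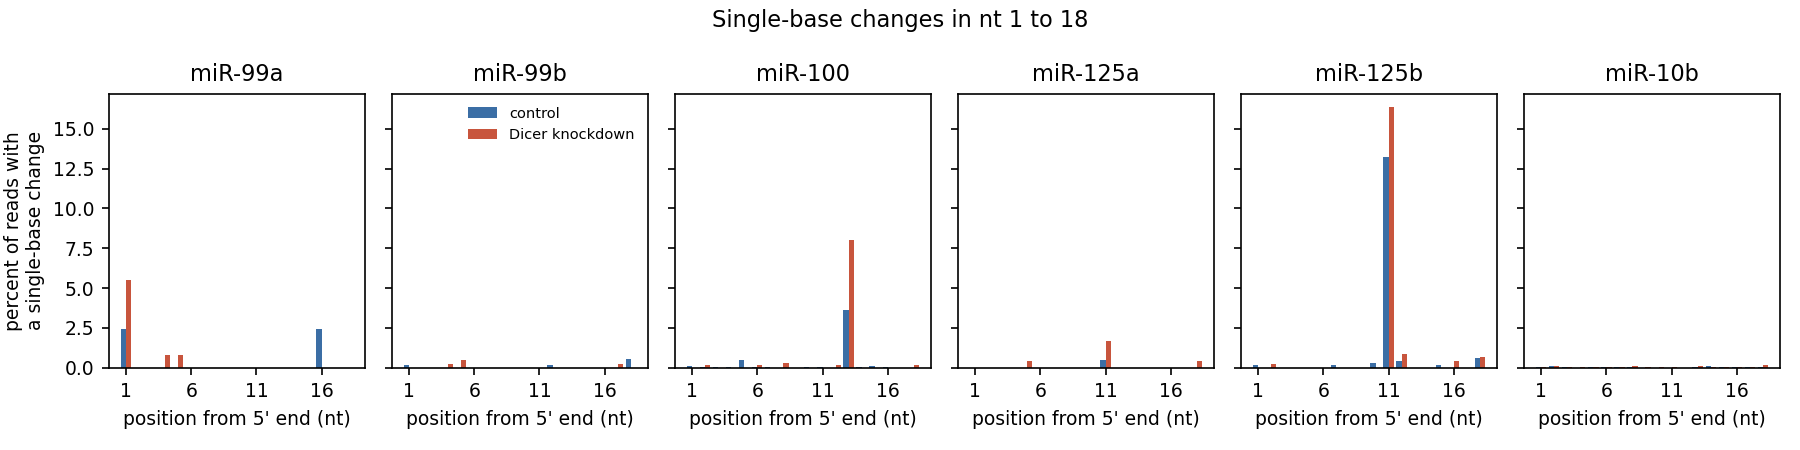
Percent of reads from the exact start with a single-base change, summed over the changes at each position from the 5′ end, for the 5 members and miR-10b, control in blue and Dicer knockdown in red, leaving out changes that turn a read into another listed miRNA. The tallest bars are miR-125b at position 11, where C11T is at 13.2% and 16.4%. Next are miR-100 at position 13, where C13T is at 3.59% and 8.01%, and miR-99a at position 1, where A1G is at 2.44% and 5.51% on 1 and 7 reads. The most frequent change in miR-10b, A2G, is at 0.121% and 0.0888%.

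The members were also counted and scaled in other ways. The ratio of miR-100 ranged from 0.289 to 0.324 and that of miR-99a from 1.95 to 3.18 over the alternatives. The miR-99b ratio ranged from 0.486 to 0.822, and it was lowest where a longer match or a longer read leaves out its short forms.

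**Figure D5:**
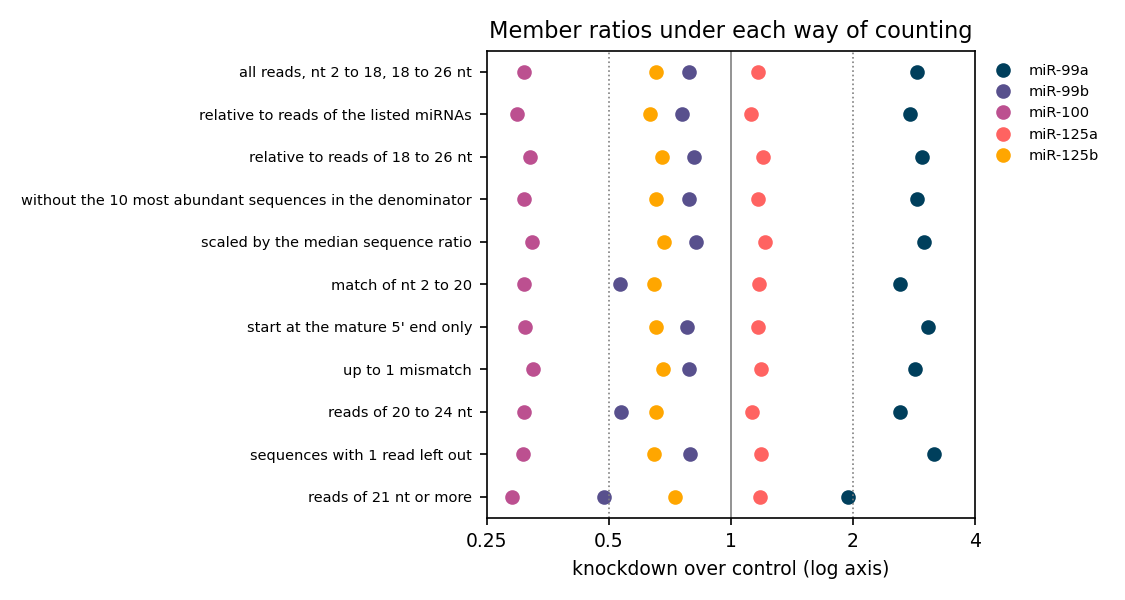
Ratio of knockdown to control (horizontal log axis) of each member under each way of counting or scaling, 1 row per setting, with dotted lines at 2-fold. miR-100 stays left of 0.5 in every row, miR-99a is right of 2 except at 1.95 with reads of 21 nt or more, and miR-99b moves from 0.788 to 0.534 with a match of nt 2 to 20 to 0.536 with reads of 20 to 24 nt and to 0.486 with reads of 21 nt or more.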

How the data were processed

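The authors deposited 1 table per library with each distinct sequence, its length and its raw read count, with no normalization. Per the submitters' processing notes, Bowtie2 was used. Its version and role, the trimming and the genome build are not given in the sources used here. Sequences of 18 to 44 nt were present, and sequences with 1 read were kept.

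No reference of miRNA sequences was used. Each miRNA was recognised by its known seed (nt 2 to 8) and a short run of bases further in, most often from nt 14, and its most abundant matching read served as the mature form. let-7 reads had to match nt 2 to 20, because let-7a and let-7c do not differ before that. Members and lists were chosen with earlier results of these data known.

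The 95% intervals are exact: Clopper-Pearson for shares, Poisson for levels, conditional binomial for ratios. A miRNA or read group was called with 100 or more reads in all and a ratio from 2 upward or from 0.5 downward. Log2 ratios had 0.5 reads added to each count, and 3 reads served as the floor for a count of 0. Named were the members, their 3p arms, let-7a, let-7c, let-7e, miR-10a, miR-10b, and of each member the 3 most abundant forms and the forms of 100 or more reads that had its highest and its lowest ratio. No miR-99a form reached 100 reads. The miR-99b forms of 18 and 19 nt, the 3′ forms of miR-125b-2-3p and the substituted reads were singled out after their values were seen. On simulated counts for 8411 read groups, all 171 groups changed 4-fold that kept 100 reads were recovered and 0 unchanged ones were called. Those counts carry Poisson error alone, so they check the calculation. Intervals were computed in scipy 1.17.1 with numpy 2.4.6 under Python 3.11.15. Tables were handled with pandas 2.3.3, and matplotlib 3.10.9 drew the plots.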

Additional observations from a re-analysis of the deposited data

How the results depend on the processing

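Of 104 recomputed values, 92 stayed within the counting interval of the main value or kept the count of members, 12 moved and 0 changed direction. The family ratio of 0.524 moved to 0.481 with a match of nt 2 to 20, to 0.479 with reads of 20 to 24 nt and to 0.456 with reads of 21 nt or more, since each leaves out short forms. The miR-99b ratio moved to 0.534, 0.536 and 0.486 in those settings. With reads of 21 nt or more the miR-99a ratio was 1.95, so 0 members were 2-fold higher and 2 were 2-fold lower, miR-100 and miR-99b. In the other 10 alternatives these counts were 1 and 1. Leaving out miR-100 gave 0.841, and 0.741, 0.736 and 0.743 in the 3 settings. The limit of 21 nt and the sum without miR-100 were added after seeing the data. Scaling moved log2 ratios by -0.05 to 0.06. Small counts limit miR-99a, miR-125a and the 3p arms most. No paired analysis was possible because each group has 1 library. Differences between replicate libraries are not known from these data.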

Other observations

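Reads longer than 26 nt that held a member's bases were few, 4 in control and 2 after knockdown over all members. Of the 109 member sequences, 52 were seen in both libraries and 33 had 1 read in all.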
